A study of Onthophagus taurus with 15 samples.

Results

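The 60 clones described here had ratios above 0 in head horn, thoracic horn and legs, each measured against dorsal abdominal epithelium, and the mean ratio was highest in head horn. They were chosen by their measured values among the 3840 clones of the table, of which 3182 had a value on all 15 arrays. For each tissue, the mean of letters A, C and E and the mean of letters B and D were averaged, which gave a head horn, a thoracic horn and a legs level on the log2 scale. Members had a head horn level of at least 1, thoracic horn and legs levels of at least 0.3, head horn at least 0.8 above legs, and thoracic horn less than 0.8 above legs. Because these values chose the members, the levels and the differences between tissues are given as a description.

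The tissues came from large males of Onthophagus taurus, a horned dung beetle, raised in a laboratory colony and taken as pupae no later than 24 h after pupation. Each spotted two-colour array held amplified RNA of 1 appendage tissue and of dorsal abdominal epithelium, each a pool from 4 pupae and both from the same animals. Head horn, thoracic horn and legs had 5 arrays each, lettered A to E, with Cy3 on the appendage for A, C and E and Cy5 for B and D. All groups shared sex, stage and colony, and the differences between appendages are indirect, through abdomen.

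Horns of scarab beetles are outgrowths of the epidermis of the head or prothorax that lack joints and muscles, while legs are jointed limbs. In Onthophagus taurus large males bear long curved head horns as adults, whereas the horn on the pupal thorax is lost before the adult emerges. Horn growth in Onthophagus is known to draw on genes that also pattern legs, and dorsal abdominal epidermis forms no such outgrowth.

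Each array gave values for 3511 to 3808 clones, with a median log2 ratio from -0.07 to 0.15. Letter D was the least complete in each tissue, with 295 to 329 empty clones, against 32 to 120 on the other arrays. Ratios were taken as log2 because the base is not stated. A positive value is taken as appendage over abdomen, which is likely and not settled, and the other direction would turn every sign. That the values were already turned for the dye flips is not stated either, and was taken from the data. Within a tissue, arrays of opposite layout correlated with a Pearson r of 0.53 to 0.75 over the complete clones (18 pairs), and dye bias of single clones could add to that. Were letters B and D to be turned, the thresholds would choose 2 clones, none of them members. The members were chosen on the unturned values, so their absence there follows from the choice. None of the clone IDs (0 of 3840) matched the gene table, so no clone has a gene name here and tissue identity could not be checked against marker genes. In pooled tissue, fewer cells of a type and less RNA per cell cannot be told apart. In a ratio, a high appendage level and a low abdominal level cannot be told apart either.

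The members formed a gradient from head horn through thoracic horn to legs. Their median head horn level was 2.43, beside 1.56 for thoracic horn and 1.24 for legs, which corresponds to 5.39-fold, 2.96-fold and 2.36-fold above abdomen. Levels ranged from 1.29 to 3.87 in head horn, from 0.49 to 3.26 in thoracic horn and from 0.45 to 2.70 in legs. Over all 3182 complete clones the medians were 0.03, 0.02 and 0.07 in the same order. A head horn level of at least 2 was reached by 41 members and of at least 3 by 7. In thoracic horn 12 members reached 2, and in legs 4 did.

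**Figure D1:**
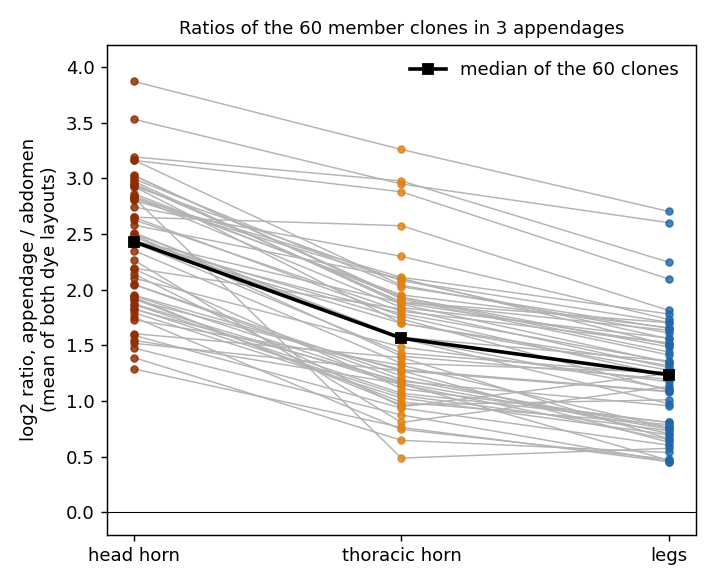
Log2 ratio over abdomen (y axis, mean of both dye layouts) of each of the 60 members in head horn, thoracic horn and legs (x axis). Grey lines join the levels of 1 clone and the black line joins the medians of 2.43, 1.56 and 1.24. Most lines fall more steeply between head horn and thoracic horn than between thoracic horn and legs.

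The 2 steps of the gradient were unequal, which follows in part from the thresholds. The rule set head horn at least 0.8 above legs and thoracic horn less than 0.8 above them. Head horn therefore exceeded thoracic horn in every member, and the lower step was capped. The median difference was 0.79 between head horn and thoracic horn and 0.37 between thoracic horn and legs. In 50 of 60 members the step from head horn to thoracic horn was the larger, and in the median member it held 68.0% of the gap between head horn and legs. That whole gap had a median of 1.12, or 2.17-fold, and a range of 0.82 to 2.25. It reached 1 in 43 members. The difference between head horn and thoracic horn ranged from 0.08 to 2.34 and reached 1 in 14 members. In 4 members, OtL009-C06, OtL009-B07, OtL009-G10 and OtL018-F02, thoracic horn did not exceed legs.

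The rule's level thresholds for the 3 tissues were met by 149 clones. Besides the 60 members, 21 of them had both horns at least 0.8 above legs, 68 had neither, and 0 had thoracic horn alone. The 21 clones had medians of 3.22 for head horn, with 2.84 for thoracic horn and 1.05 for legs, and the 68 clones had 1.57, 1.26 and 1.33. The members thus had a legs median between those of the other sets, and a thoracic horn median far below that of the 21 clones. These orders follow in part from the thresholds.

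Members lay closer to the thresholds on differences between tissues than to those on levels. OtP001-B02 had the lowest head horn level, 1.29, and the lowest legs level, 0.45, with 0.76 in thoracic horn. OtL009-C06 had the lowest thoracic horn level, 0.49, beside 2.82 in head horn and 0.57 in legs. OtL016-A04 was the only clone kept out by the thoracic horn threshold alone, with 2.64 for head horn, with 0.26 for thoracic horn and 0.48 for legs. OtP014-A09 was nearest among the 13 clones that failed on legs alone, with levels of 1.24, 0.36 and 0.27 in head horn, thoracic horn and legs.

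The difference between head horn and legs decided most cases. OtL015-A11 lay just inside with 0.82, from levels of 1.91, 1.28 and 1.09 in head horn, thoracic horn and legs. OtP015-E05 lay just outside with 0.78, from 2.66, 1.76 and 1.88. On the last threshold OtP017-A05 lay inside, with thoracic horn 0.78 above legs, from levels of 3.16, 2.88 and 2.10. OtL013-G10 lay outside with 0.80, from levels of 1.66, 1.35 and 0.55. No clone failed on the head horn level alone. This was fixed by arithmetic, since the legs threshold and the required gap to legs together exceed the head horn threshold.

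OtL014-H05 had the highest head horn level of all members, 3.87, and its 15 values spread widely. On letters A to E it stood at 1.87, 4.95, 4.51, 4.74 and 2.31 in head horn, at 2.01, 4.91, 4.44, 3.35 and 0.72 in thoracic horn, and at 0.05, 6.02, 3.0, 2.65 and 0.16 in legs. Its letters B, C and D were high in all 3 tissues, A and E were low, and the tissues overlapped. On letter B legs exceeded both horns. Its fitted difference between head horn and legs was 1.30 ± 0.88 (SE from the limma fit, 5 arrays per tissue). The error was 0.46 with the letter as a fixed block.

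The next members by head horn level had a similar ordering of letters. OtL016-H11 stood at 2.57, 4.37, 3.96, 3.96 and 2.15 in head horn, at 2.41, 3.22, 3.69, 3.23 and 1.90 in thoracic horn, and at 1.04, 4.40, 3.62, 1.94 and 1.43 in legs. OtL017-C09 stood at 2.48, 4.0, 3.77, 3.24 and 2.04 in head horn, at 2.09, 3.95, 4.14, 2.58 and 1.83 in thoracic horn, and at 1.09, 3.77, 3.37, 1.53 and 1.06 in legs. In both clones legs were far below the horns on letter A. On letter B legs were close to head horn in both, and in OtL016-H11 they exceeded thoracic horn. The fitted differences between head horn and legs were 0.91 ± 0.58 in OtL016-H11 and 0.94 ± 0.61 in OtL017-C09. With the letter as a fixed block the errors were 0.33 and 0.20, and the call in OtL017-C09 changed (adjusted p = 0.0106 by limma, over all clones). The same arrays chose the members, so nothing is read from calls or p-values of single members, here or below.

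OtL020-D11 and OtP017-A05 completed the 5 highest in head horn. OtL020-D11 stood at 2.36, 4.60, 3.74, 2.79 and 1.78 in head horn, at 2.09, 2.40, 2.61, 1.59 and 1.56 in thoracic horn, and at 0.81, 3.10, 1.95, 0.83 and 1.01 in legs. OtP017-A05 stood at 2.02, 4.36, 3.18, 3.14 and 2.52 in head horn, at 1.99, 4.14, 3.45, 2.48 and 1.91 in thoracic horn, and at 0.33, 3.92, 3.09, 1.35 and 1.25 in legs. In OtL020-D11 head horn was highest on all 5 letters and stood 1.01 ± 0.52 above thoracic horn. In OtP017-A05 the horns were close on letters A, B and C, with a fitted difference of 0.25 ± 0.60. For head horn over legs, limma with the letter as a fixed block gave 1.52 ± 0.28 in OtL020-D11 (adjusted p = 0.00600) and 1.06 ± 0.25 in OtP017-A05 (adjusted p = 0.0167), and neither was called without the block. This contrast was a condition of the rule, so these p-values are no test of the gap.

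OtL009-C06 had the largest difference between head horn and both other tissues. It stood at 2.95, 4.07, 1.32, 2.64 and 2.60 in head horn, at 0.68, 1.59, -0.94, 0.35 and 0.29 in thoracic horn, and at 0.42, 1.89, -0.71, 0.31 and 0.44 in legs. The letters moved in parallel, with C lowest and B highest in each tissue. The gap between head horn and thoracic horn therefore varied little over the letters, with an SD of 0.091 around a fitted value of 2.33 ± 0.46. The gap to legs was 2.25 ± 0.46, and thoracic horn and legs lay within 0.08 ± 0.46 of each other. With the letter as a fixed block the error of each of these differences was 0.099.

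The other 4 members with the largest gap between head horn and legs were OtL013-H09, OtL015-G04, OtL011-D12 and OtL013-G05, and their values were nearly alike. OtL013-H09 stood at 1.91, 3.50, 4.01, 2.96 and 1.95 in head horn, at 1.53, 1.61, 3.02, 1.03 and 1.69 in thoracic horn, and at 1.12, 1.36, 2.47, 0.67 and 1.03 in legs. OtL015-G04 stood at 2.08, 3.50, 3.79, 3.04 and 2.16 in head horn, at 1.82, 1.85, 2.93, 1.25 and 1.81 in thoracic horn, and at 1.05, 1.29, 2.43, 0.79 and 1.46 in legs. Head horn was highest and legs lowest on each letter of both clones.

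OtL011-D12 stood at 2.50, 3.55, 3.87, 2.88 and 2.14 in head horn, at 1.82, 1.75, 3.07, 1.42 and 1.87 in thoracic horn, and at 1.66, 1.05, 2.34, 1.02 and 1.37 in legs. OtL013-G05 stood at 2.60, 3.89, 3.65, 2.43 and 2.41 in head horn, at 1.92, 2.28, 2.80, 1.16 and 1.71 in thoracic horn, and at 1.07, 1.71, 2.44, 0.74 and 1.46 in legs. The order head horn, thoracic horn, legs held on all 5 letters in both. The fitted gaps between head horn and legs of the 4 clones lay between 1.50 ± 0.37 in OtL011-D12 and 1.53 ± 0.48 in OtL013-H09. On all 15 arrays OtL013-H09 was called with the letter as a block and not without it, with an error of 0.26 and an adjusted p of 0.00366 by limma with the fixed block. OtL013-G05 had head horn over thoracic horn called with the fixed block and not without it, at 1.02 ± 0.17 (adjusted p = 0.0131). Both clones were chosen on these arrays, so nothing is read from these calls.

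OtL009-B07 and OtL009-G10 had large gaps between the horns and changed sign between letters. OtL009-B07 stood at 0.09, 4.01, 3.66, 3.0 and -0.68 in head horn, at -1.13, 1.65, 2.42, 2.45 and -2.60 in thoracic horn, and at -0.80, 2.28, 1.65, 1.95 and -0.40 in legs. OtL009-G10 stood at -0.21, 3.33, 3.34, 4.15 and -1.51 in head horn, at -0.77, 1.49, 1.90, 2.43 and -1.31 in thoracic horn, and at -0.32, 2.22, 2.01, 1.48 and 0.24 in legs. On letters B, C and D all their values were above 1, and on A and E nearly all were below 0. The fitted differences between head horn and thoracic horn, 1.46 ± 0.94 and 1.07 ± 0.87, were close to their errors in the fit without a block. With the letter as a fixed block the errors were 0.38 and 0.48.

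At the other end, 3 members had nearly equal horns. OtL011-G11 stood at 1.94, 3.89, 1.49, 2.57 and 2.79 in head horn, at 1.94, 3.74, 1.71, 2.27 and 2.78 in thoracic horn, and at 0.20, 3.65, 1.41, 1.48 and 1.57 in legs. OtL015-B08 stood at 1.24, 1.93, 1.55, 1.72 and 1.35 in head horn, at 0.92, 2.06, 1.09, 1.17 and 1.48 in thoracic horn, and at 0.15, 0.96, 0.90, 0.77 and 0.33 in legs. In OtL011-G11 the tissues converged on letters B and C, whereas in OtL015-B08 head horn and legs did not overlap. The horns differed by 0.05 ± 0.47 in OtL011-G11, by 0.22 ± 0.19 in OtL015-B08 and by 0.19 ± 0.61 in OtL017-C09, so none of these differences exceeded its error by much. Head horn over legs in OtL011-G11, 0.87 ± 0.47, was called by limma with the letter as a fixed block, at an error of 0.24 (adjusted p = 0.0288), and not without it. The rule used this gap on the same arrays, so nothing is read from the call.

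The spread between letters differed widely among the members, and much of it cancelled in differences taken within a letter. OtL008-G04 had the largest SD within tissues, 2.46, and stood at -1.15, 4.07, 3.89, 4.58 and -1.26 in head horn, at -1.96, 2.99, 2.21, 4.56 and -0.87 in thoracic horn, and at -0.48, 2.64, 2.19, 1.69 and -0.08 in legs. Letters A and E were below 0 in all 3 tissues and letters B, C and D above 1. The median SD within a tissue was 0.91 in the members, against 0.36 over all complete clones. Among the 68 clones with neither horn above legs by the threshold it was 0.56, and among the 21 with both it was 0.94.

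OtL014-H03 had the smallest SD, 0.16. It stood at 1.84, 1.66, 1.83, 1.88 and 2.0 in head horn, at 1.38, 1.05, 0.86, 0.86 and 1.20 in thoracic horn, and at 0.64, 0.79, 0.65, 0.84 and 0.67 in legs. No array of 1 tissue overlapped those of another. Its fitted steps were 0.77 ± 0.12 between head horn and thoracic horn and 0.35 ± 0.12 between thoracic horn and legs, which is the shape of the median gradient at nearly constant levels.

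OtL014-D11 and OtL020-A02 were the next steadiest. OtL014-D11 stood at 1.14, 2.03, 1.37, 1.73 and 1.40 in head horn, at 0.60, 0.88, 1.09, 1.0 and 1.11 in thoracic horn, and at 0.46, 0.51, 0.31, 0.65 and 1.11 in legs. OtL020-A02 stood at 1.87, 1.65, 1.35, 1.51 and 1.16 in head horn, at 1.54, 1.54, 1.27, 1.21 and 0.70 in thoracic horn, and at 0.42, 0.89, 0.77, 0.71 and 0.19 in legs. In both, all head horn arrays were above all legs arrays. Thoracic horn lay nearer legs in OtL014-D11 and nearer head horn in OtL020-A02.

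**Figure D2:**
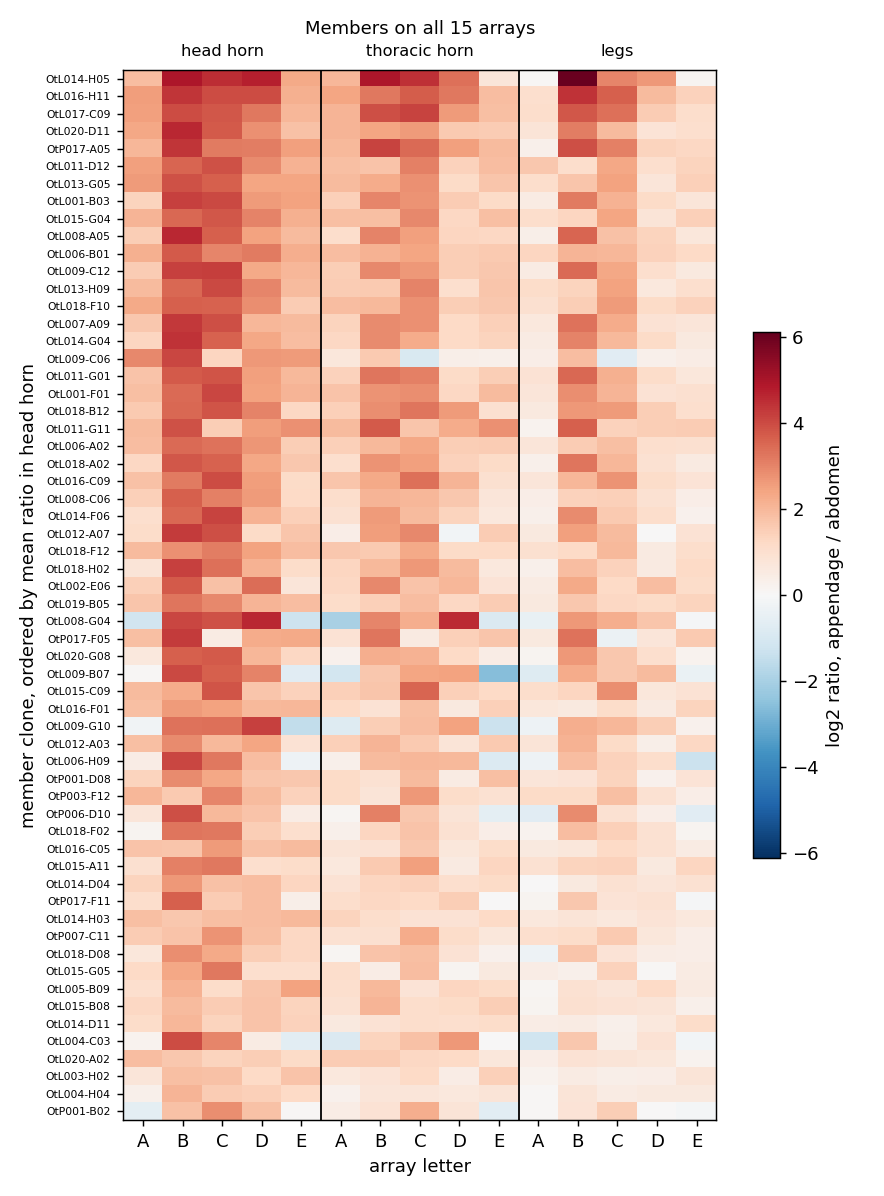
Log2 ratio over abdomen of the 60 members (rows, ordered by head horn level) on the 15 arrays (columns, letters A to E within head horn, thoracic horn and legs). Red is above 0 and blue below 0. Letters B and C are the darkest columns in most rows of each tissue, and the few blue cells lie mainly on letters A and E.

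The levels of the members differed between letters in all 3 tissues. Their head horn medians were 1.57, 3.53, 3.21, 2.30 and 1.58 on letters A to E. The thoracic horn medians were 1.17, 1.98, 2.25, 1.26 and 1.18, and the legs medians were 0.51, 1.88, 1.61, 0.92 and 0.74. Letters B and C were thus the highest and A and E the lowest in each tissue, although B and C had opposite dye layouts. The medians over all complete clones stayed between -0.06 and 0.14 on the same arrays.

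The ordering of letters was shared by many single members. Both B and C were above both A and E in all 3 tissues in 38 members, or 63.3%, against 4.43% of all complete clones. Among the 68 clones with neither horn above legs by the threshold the share was 19.1%, and among the 21 with both it was 47.6%. This count was chosen after the letter values were seen. Of the 900 member values, 36 were below 0, in 12 members, and 32 of these were on letters A or E. The other 48 members were above 0 on all 15 arrays. Deviations from the tissue means over the 15 arrays correlated between members with a median Pearson r of 0.61 (quartiles 0.35 and 0.79), against 0.01 between all complete clones. The median r was 0.15 among those 68 clones and 0.45 among those 21. Dye layout and abdominal samples also change with the letter, and their parts in this likeness were not tested.

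**Figure D3:**
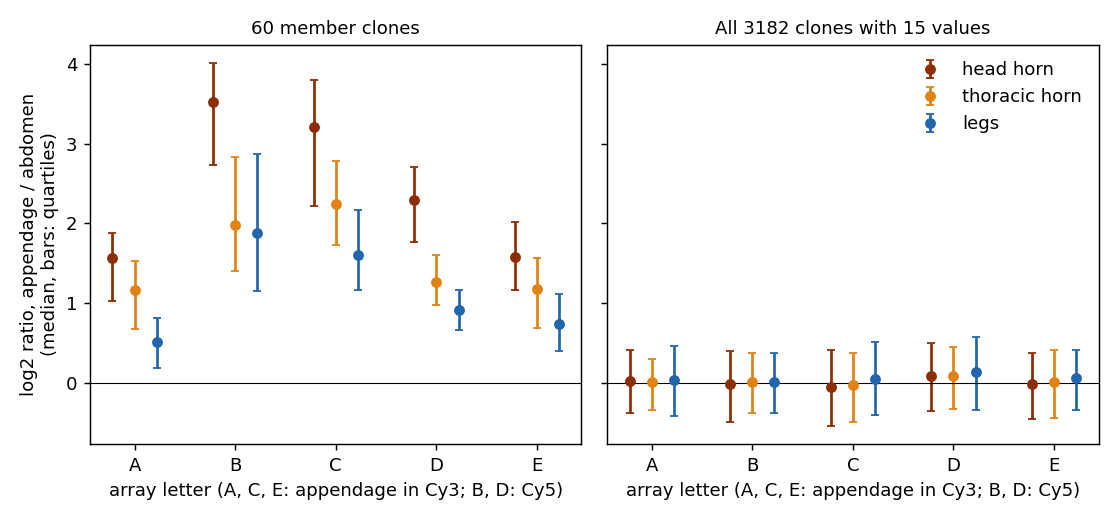
Median log2 ratio over abdomen (y axis, bars are quartiles over clones) by array letter (x axis) in head horn, thoracic horn and legs, for the 60 members (left) and all 3182 complete clones (right). The members are highest on letters B and C, and the medians of all clones lie near 0 on each letter.

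The gradient itself held on most letters. Head horn exceeded legs in 57, 58, 60, 59 and 52 of the 60 members on letters A to E, with median differences of 0.98, 1.23, 1.38, 1.35 and 0.84. Head horn exceeded thoracic horn in 54, 59, 56, 58 and 50 members, with median differences of 0.32, 1.20, 0.79, 0.85 and 0.45. Thoracic horn exceeded legs in 54, 35, 58, 55 and 49 members, with median differences of 0.64, 0.08, 0.55, 0.40 and 0.35. Letter B was the exception for the lower step, since thoracic horn and legs were nearly level there. Letter A was the exception for the upper step, with the horns closer than thoracic horn and legs in most members.

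Counted by member, head horn exceeded legs on 5 of 5 letters in 48 members, on 4 in 10 and on 3 in 2. Over all complete clones 16.6% had head horn above legs on every letter. Head horn exceeded thoracic horn on 5 letters in 40 members, on 4 in 17 and on 3 in 3, and 7.57% of all complete clones did so on every letter. Thoracic horn exceeded legs on every letter in 25 members, and 20.1% of all complete clones did so. Head horn was the highest tissue on every letter in 38 members, and the full order of head horn, thoracic horn and legs held on every letter in 17. The full order held on 4 letters in 25 members, on 3 in 12, on 2 in 5 and on 1 letter in OtL009-G10. For these counts the share of all complete clones over every letter was not computed. On single letters head horn was highest in 26.7% to 36.1% of all complete clones, and the full order held in 14.3% to 22.9%.

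In few members did the arrays of head horn and another tissue not overlap at all. All 5 head horn arrays exceeded all 5 legs arrays in 10 members, among 2.8% of all complete clones, and all 5 thoracic horn arrays in 4 members, among 0.849% of all complete clones. The SD of the difference between head horn and legs over the letters had a median of 0.55 in the members, below the SD of 0.91 of the levels within a tissue. It was 0.31 over all complete clones, 0.38 in the 68 clones with neither horn above legs by the threshold and 0.60 in the 21 with both.

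Applying the same thresholds to 4 letters and reading the letter left out gives values that did not choose the clones. The lists held 67, 55, 52, 59 and 61 clones when letters A to E were left out in turn, of which 55, 44, 48, 47 and 56 were members. On the letter left out, head horn exceeded legs in 63 of 67, 53 of 55, 50 of 52, 57 of 59 and 52 of 61 clones. The median differences there were 1.03, 0.99, 1.39, 1.21 and 0.81. They were close to the medians of the 60 members on the same letters, while the medians of all complete clones lay near 0. Most clones of each list were members read on the same arrays, so closeness to the members was largely built in.

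The smaller steps also appeared on the letters left out, apart from the lower step on letter B. The median differences between head horn and thoracic horn were 0.30, 1.11, 0.78, 0.82 and 0.44. Head horn was above thoracic horn in 55 of 67, 51 of 55, 48 of 52, 56 of 59 and 49 of 61 clones. Of all complete clones 47.7% to 51.1% had it so on these letters. The median differences between thoracic horn and legs were 0.70, 0.05, 0.55, 0.40 and 0.31. Thoracic horn was above legs in 61, 31, 48, 52 and 49 clones of the same lists, against 46.1% to 50.2% of all complete clones. Letter B again had thoracic horn and legs at nearly the same level. The 5 lists overlap, so they are not separate evidence. In all 5 lists stood 35 of the members, 8 stood in 4 lists, 12 in 3 and 3 in 2. OtP017-A05 stood in 1 list and OtL011-G11 in none.

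**Figure D4:**
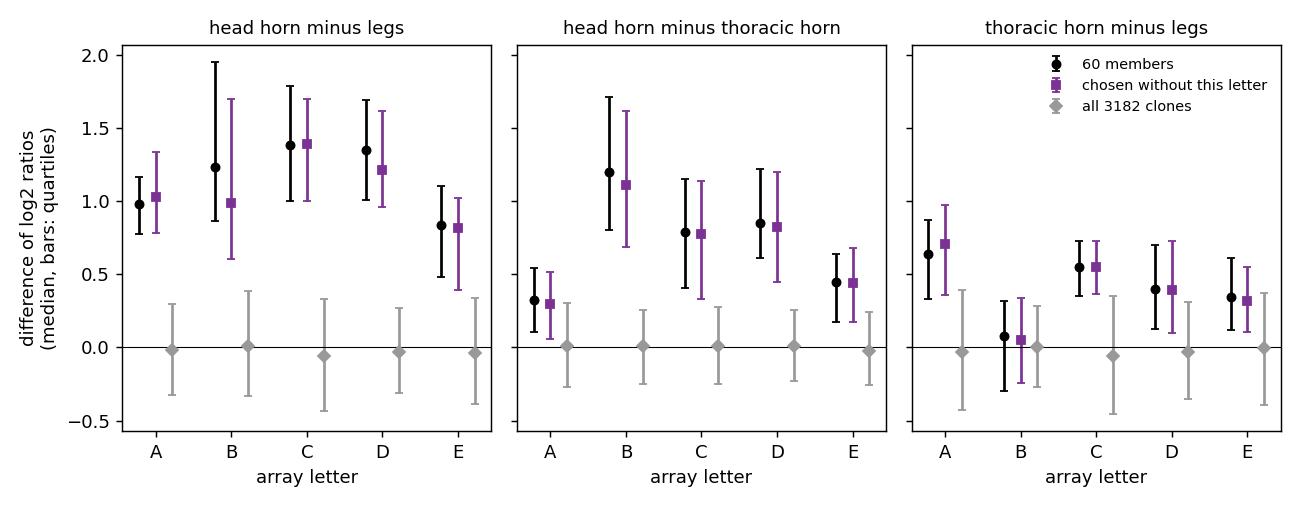
Median difference of log2 ratios (y axis, bars are quartiles over clones) by array letter (x axis) for head horn minus legs, head horn minus thoracic horn and thoracic horn minus legs. The 60 members (black), the clones chosen on the other 4 letters (purple) and all 3182 complete clones (grey) are shown. The black and purple medians lie close together on each letter, and most purple clones are also members.

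A test was possible where the clones were chosen on arrays of 1 dye layout and read on those of the other. The thresholds on letters A, C and E alone chose 40 clones, 38 of them members. On the 6 arrays of letters B and D their medians were 2.82 for head horn, with 1.60 for thoracic horn and 1.21 for legs. All 40 had head horn above legs, with a median of 1.14, and all 40 had head horn above thoracic horn, with a median of 1.1. Over all complete clones these shares were 48.6% and 50.5% there. By limma at an adjusted p under 0.05, 39 of the 40 were called in head horn over abdomen, against 11.6% of all clones. In thoracic horn 21 were called, against 6.12%, and in legs 19 were called, against 10.4%.

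Differences between tissues were called in few clones of this list. For head horn over legs 0 of the 40 had an adjusted p under 0.05 by limma, against 0.0308% of all clones. At an unadjusted p under 0.05 the count was 26, against 6.09%, and for head horn over thoracic horn it was 19, against 2.55%. With the letter as a block, 2 of the 40 were called for head horn over legs, against 0.246% of all clones. Thoracic horn was above legs in 26 of the 40, with a median of 0.15, so the lower step was small on letters B and D.

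Letters B and D alone chose 83 clones, 53 of them members, which were read on the 9 arrays of letters A, C and E. Their medians there were 1.79 for head horn, with 1.28 for thoracic horn and 0.77 for legs. Head horn was above legs in 78 of 83, with a median of 0.97, and above thoracic horn in 75, with a median of 0.42. By limma 63 were called in head horn over abdomen, against 11.1% of all clones, 44 in thoracic horn, against 8.59%, and 26 in legs, against 14.6%. For head horn over legs 2 were called, against 0.371%, and 21 at an unadjusted p under 0.05, against 6.11%. For head horn over thoracic horn 6 passed an unadjusted p under 0.05, against 2.37%.

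The letter as a block raised these counts. For head horn over legs 36 of the 83 were called with it, against 2.91% of all clones. For head horn over thoracic horn 2 were called, against 0.0571%. For thoracic horn over legs 7 were called with the block, against 4.77%. Without it the count was 0 by limma, against 0.685%, and 6 passed an unadjusted p under 0.05, against 8.56%. Both choices of layout together shared 34 clones. All were members by arithmetic, since a clone that passes on each layout also passes on their average. In both lists the median gap between the horns was larger on B and D, and that between thoracic horn and legs was larger on A, C and E.

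On all 15 arrays, the limma fit over 3777 clones called 59 members in head horn over abdomen, 49 in thoracic horn and 47 in legs (adjusted p under 0.05). The shares called with positive ratios over all clones were 18.2%, 16.9% and 22.3%. Head horn over legs was called in 19 members, against 3.1% of all clones, head horn over thoracic horn in 2, against 0.371%, and thoracic horn over legs in 2, against 5.32%. Since the rule used the same contrasts, nothing is read from these counts. Taking the letter as a random block, calls for head horn over legs came to 38 members, against 9.24% of all clones, and those for head horn over thoracic horn to 6, against 0.953%. With the letter as a fixed block they came to 50, against 10.1%, and to 17, against 1.24%, and those for thoracic horn over legs to 11, against 12%.

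The dye layout was not a condition of the rule, which weighs both layouts equally. Yet B and D have fewer arrays, so at equal spread between arrays a level and the layout difference correlate at -0.2. The choice of high levels thus favours clones higher on B and D, and the direction given here follows in part from it. The layout term was called in 9 members, or 15%, all with higher ratios on B and D, against 13.2% of all clones in that direction. In the direction of A, C and E it was called in 0 members by limma, against 9.4% of all clones. The 15% is near the background. The largest called term was -3.15 ± 0.88 in OtL008-G04 (A, C and E minus B and D). With the letter as a random block 1 member was called, against 2.59% of all clones. The median layout term of the members was -0.56, against -0.03 over all complete clones, and it was below 0 in 45 members. Of the 68 clones with neither horn above legs by the threshold 54 were below 0, with a median of -0.38. Of the 21 with both, 19 were below 0, with a median of -0.78. In those sets 23.5% and 19% were called higher on B and D, so the tilt was not particular to the members. With a layout term per tissue the medians of the members were -0.77 for head horn, with -0.21 for thoracic horn and -0.52 for legs. No member had a layout term called different between head horn and legs or between the horns. Of all 3725 clones tested, 1 and 0 were called in these comparisons, so nothing is read from that.

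Some members gave nearly the same 15 values. Clones were grouped when a root mean square difference of at most 0.3 over the 15 arrays linked them, a threshold chosen after the values were seen. This joined 18 members into 5 groups, and counting each group as 1 left 47 distinct profiles. No clone outside the 60 lay that close to a member. Several clones of 1 transcript would give such profiles, and the files hold no sequence to test that, so the number of genes may be smaller.

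The larger groups showed different gradients. The group of 7 held OtL001-B03, OtL008-A05, OtL009-C12, OtL007-A09, OtL014-G04, OtL011-G01 and OtL018-A02, with mean levels of 2.86 for head horn, with 1.96 for thoracic horn and 1.66 for legs. On letter B its legs mean of 3.33 exceeded its thoracic horn mean of 2.96. The group of 5 held OtL011-D12, OtL013-G05, OtL015-G04, OtL013-H09 and OtL018-F10, with mean levels of 2.96, 1.87 and 1.39. On letter B its legs mean of 1.38 lay below its thoracic horn mean of 1.89. Head horn exceeded legs by 0.95, 0.84, 1.75, 1.28 and 1.31 on letters A to E in the group of 7, and by 1.11, 2.24, 1.33, 1.95 and 0.69 in the group of 5. The gap was thus widest on C in the group of 7 and on B and D in the group of 5. Because clones of a group may share a source, these differences were not tested.

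**Figure D5:**
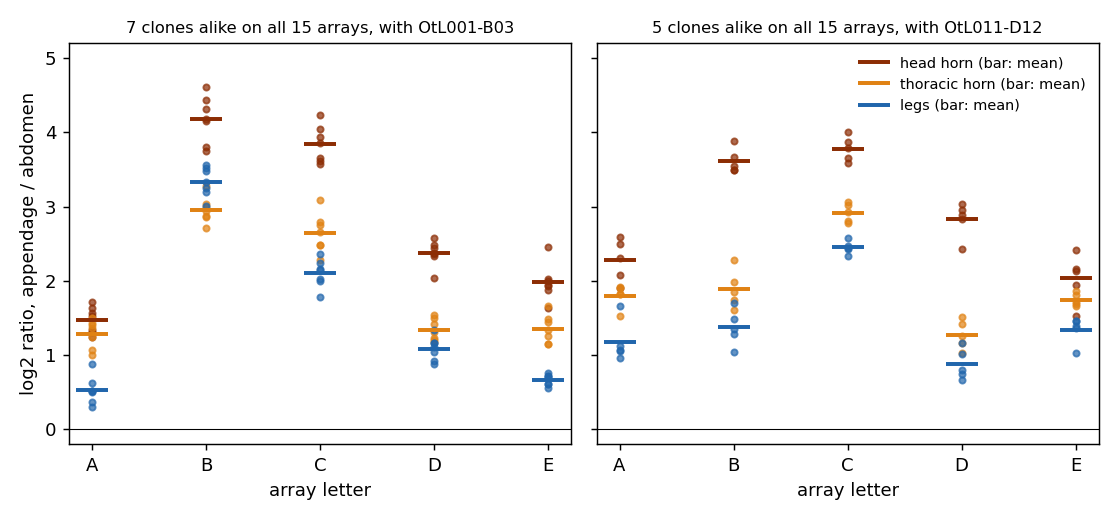
Log2 ratio over abdomen (y axis) by array letter (x axis) for the 7 members alike with OtL001-B03 (left) and the 5 alike with OtL011-D12 (right), with points for clones and bars for means in head horn, thoracic horn and legs. On letter B legs lie above thoracic horn in the group of 7 and below it in the group of 5.

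The 3 other groups were pairs. OtL014-F06 and OtL020-G08 had mean levels of 2.43 for head horn, with 1.46 for thoracic horn and 1.31 for legs. OtL016-F01 and OtP001-D08 had 2.12, 1.15 and 0.78. OtP003-F12 and OtP007-C11 had 1.89, 1.22 and 1.02. The first of these pairs resembled the group of 7 on letter B, with legs 0.36 above thoracic horn, while the second had thoracic horn 0.19 above legs.

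The clone prefix and plate, which the rule did not use, were unevenly spread. Of the 60 members 52 had the prefix OtL and 8 the prefix OtP, or 86.7% OtL, against 53.8% of the complete clones. The share was 51.5% among the 68 clones with neither horn above legs by the threshold and 57.1% among the 21 with both. The sources used here do not say what the prefixes stand for. The members lay on 24 of 40 plates, 19 of them OtL plates and 5 OtP plates, with at most 7 on 1 plate, OtL018. Both larger groups of alike members were all OtL.

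The members not yet named were OtL006-B01, OtL001-F01, OtL018-B12, OtL006-A02, OtL016-C09, OtL008-C06, OtL012-A07, OtL018-F12, OtL018-H02, OtL002-E06, OtL019-B05, OtP017-F05, OtL015-C09, OtL012-A03, OtL006-H09, OtP006-D10, OtL016-C05, OtL014-D04, OtP017-F11, OtL018-D08, OtL015-G05, OtL005-B09, OtL004-C03, OtL003-H02 and OtL004-H04. Their levels lay within the ranges given above. Among them, OtL004-C03 had head horn above legs on 3 letters only, as did OtL008-G04. OtL006-B01, OtL019-B05, OtL016-C05 and OtL014-D04 had no overlap between head horn and legs arrays.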

How the data were processed

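Values were taken from the deposited table of 1 value per clone and array, which the authors had made with limma, per the submitters' processing notes. These deposited values were taken as log2 ratios. For the background correction, the normalization, the filter behind empty values and the base of the log, nothing is stated in the sources read here. Members and lists were chosen with earlier results of these data known. Levels weigh both dye layouts equally. Clones with values on at least 3 arrays per tissue and on both layouts, 3777 in all, were fitted in R 4.3.3 with lmFit and eBayes of limma 3.58.1 (a coefficient per tissue, 1 shared layout term, Benjamini-Hochberg adjustment over all clones tested). Arrays of the same letter deviated together from the means of their tissues over the complete clones, with r from 0.44 to 0.68 over 15 pairs and from 0.34 to 0.48 within a layout, so the letters pair the arrays on evidence from the data. The main fit used no block, so its errors and calls for differences between tissues ignore this pairing. Spread shared by arrays of a letter stays in those errors, which in OtL009-C06 were 0.46 without the block and 0.099 with it fixed. The letter as a block was an alternative. The main fit was tested on simulated data with independent noise on each array. Those data had no spread shared by a letter, so the test cannot show how the fit handles the pairing. Per-array values are given for the 5 members highest in head horn, the 5 with the largest differences from legs and from thoracic horn, the 3 with the smallest difference between the horns, and the 3 with the largest and smallest SD within tissue. Members and clones just inside and outside each threshold are given by their levels. P-values measure the spread between arrays. Replicates of a tissue are separate pools of pupae per the series design, but whether same-letter arrays of different tissues share pupae is not stated. The signal behind each ratio is not known here, and the number of arrays limits the precision. Other processing choices tried were a plain mean of the letters, centred arrays, thresholds moved by 0.1, missing values let in, other clone filters, no layout term, eBayes with trend and robust settings, and leaving out each letter.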

Additional observations from a re-analysis of the deposited data

Results flagged for a closer look

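Letter D had the most empty clones in each tissue and lay apart from the other letters in a Dixon test of 5 arrays: 295 in head horn, where the others had 42 to 106, 321 in thoracic horn, where the others had 43 to 120, and 329 in legs, where the others had 32 to 96. OtL011-D12 had 3.07 in thoracic horn on letter C, where its other letters lay between 1.42 and 1.87. In all 63 groups were tested this way and 4 stood apart, while about 1 in 20 would by chance.

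Of the 18 members described on every array, 8 had a tissue difference called by limma (adjusted p under 0.05 over all clones), all on values that also chose them. Over all clones 3.1% were called for head horn over legs and 0.371% for head horn over thoracic horn. Head horn was above legs by 2.25 in OtL009-C06, by 1.51 in OtL015-G04, by 1.50 in OtL011-D12, by 1.51 in OtL013-G05, by 0.94 in OtL015-B08, by 1.13 in OtL014-H03, by 0.92 in OtL014-D11 and by 0.91 in OtL020-A02. Head horn was above thoracic horn by 2.33 in OtL009-C06 and by 0.77 in OtL014-H03. Thoracic horn over legs was also called in OtL015-B08, by 0.72, and in OtL020-A02, by 0.66, against 5.32% of all clones. In each of these clones head horn was above legs on 5 of 5 letters.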

How the results depend on the processing

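The number of members stayed within 1.5 times 60 under all choices but the sign of letters B and D: 40 on letters A, C and E alone, 83 on B and D alone and with thresholds 0.1 looser, 48 with thresholds 0.1 stricter, 55 by the plain mean and by the fit with the replicate block, 62 with centred arrays, 66 with missing values let in, 47 with alike members counted as 1 (a choice made after the values were seen), and 52 to 67 without a letter. Turning the sign of letters B and D, also chosen after the values were seen, gave 2 clones, none of them members. The counts of members called moved more, as did the shares of all clones called, given after each. Head horn over legs was called in 19 members (3.1%), but in 38 with the letter as a random block (9.24%), 50 with it as a fixed block (10.1%), 12 with trend and robust eBayes (2.73%), 11 without the layout term (1.48%), and 5 to 15 without a letter (10 without A, 5 without B, D or E, 0.965% to 1.97%). Head horn over thoracic horn was called in 2 members (0.371%), but in 6 and 17 with the random and fixed blocks (0.953% and 1.24%), 4 when only complete clones were tested (0.503%), 1 with trend and robust eBayes or without the layout term (0.265% and 0.159%), and 0 to 2 without a letter (0 without B or D, 1 without A or E, 0.0268% to 0.25%). Thoracic horn over legs was called in 2 (5.32%), but in 11 with the fixed block (12%), 0 with trend and robust eBayes or without the layout term (5.24% and 3.02%), and 0 to 1 without a letter (0 without A or B, 2.73% to 3.78%). The layout term was called in 9 (13.2%), but in 1 with the random block (2.59%), 4 with centred arrays (10.5%), 5 with trend and robust eBayes (12.9%), and 1 to 24 without a letter (24 without C with 11.7%, 1 without A or B, 4 without E, 6.35% to 13.6% in all). In the list chosen on A, C and E the letter block took calls of head horn over legs to 2, against 0 without it. In the list chosen on B and D it took them to 36, against 2, calls of head horn over thoracic horn to 2, against 0, and calls of thoracic horn over legs to 7, against 0. With the random block the counts of members over abdomen were 60 for head horn, with 54 for thoracic horn and 49 for legs, within 1.5 times those without it. No called value changed sign under these fits. For head horn minus legs and head horn minus thoracic horn of the named members, 389 of 432 values kept their side of the threshold. Another 34 lost a call and 9 gained one. The causes were not tested. Leaving out a letter also leaves fewer arrays. Signal over background is not known here.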
